A study of Mus musculus with 12 samples.

Results

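The EGF family of ligands and the ErbB receptors that bind them were measured as 9 of the 10 genes in the family list, out of 19938 genes with a named probe set in all. The members were the ligands Hbegf, Ereg, Btc, Tgfa and Egf and the receptors Egfr, Erbb2, Erbb3 and Erbb4, each read from its probe set with a single gene symbol. Amphiregulin (Areg) belongs to the list but was not analysed here, because no probe set of the value table is paired with it in the annotation used.

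Tissue came from mice dissected on day 3.5 after mating, before implantation, as whole flushed oviducts or uterine horns that were frozen for RNA. The groups were E2 uterus, oil uterus, E2 oviduct and oil oviduct, each with 3 arrays from samples labelled as biological replicates. E2 mice received estradiol under the skin at 10 µg/kg (about 250 ng per mouse) in 100 µl sesame oil on each of days 0.5, 1.5 and 2.5, and oil mice received the sesame oil alone (0 µg/kg). The sources used here give neither strain nor age, and whether equal replicate numbers mark the same mouse is not stated.

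ErbB receptors are cell surface tyrosine kinases that pair with one another when a ligand binds. Ligands of the family are made as membrane-anchored precursors that proteases release, and HB-EGF can also act on a neighbouring cell while still anchored. EGFR binds all the member ligands measured here, and ERBB4 binds HB-EGF, betacellulin and epiregulin as well as neuregulins. ERBB3 binds some neuregulins but has a weak kinase, and ERBB2 binds no known ligand and serves as a partner. In the mouse uterus the family is known for signals between the epithelium, the stroma and the blastocyst around implantation, and estradiol and progesterone are both known to act on its genes.

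Values are deposited probe set intensities on a linear scale, and differences are log2 fold changes from 1 limma fit over all 12 arrays, with p-values adjusted over all genes by the Benjamini-Hochberg method and called under 0.05. Levels of different members were not compared with each other. Members were set beside Y-linked genes as a guide to background and, in uterus, beside epithelial markers. Hoxa11, a transcription factor gene of the uterus, lay between 8.45 and 9.61 (log2 intensity) on the uterine arrays and between 5.49 and 5.74 on the oviductal ones. Foxj1, a ciliated cell gene, lay between 6.24 and 6.73 in uterus and between 7.80 and 9.10 in oviduct. Ltf, a classic estradiol target, averaged 12.05 in E2 uterus and 6.60 in oil uterus. The arrays of oil replicate 3 were unlike the rest of their groups. The uterine one had 177 genes, and the oviductal one 302, displaced by over 1 log2 unit, against 8 to 62 genes on each of the other 10 arrays. The 6 measured markers of corpus luteum and granulosa cells summed to an intensity of 4855 on the oviduct array of oil replicate 3, where Akr1c18, a luteal enzyme gene, had a log2 intensity of 11.51. In oviduct 0 of 2 estradiol target genes, Ltf and Lcn2, passed the test of E2 against oil with all arrays. Without both oil replicate 3 arrays both passed as higher by limma, Ltf at 0.49 (adjusted p = 0.0238) and Lcn2 at 1.19 (adjusted p = 0.00122). Where leaving out both oil replicate 3 arrays changes the call of a named gene or the count of calls in a single list for E2 against oil, the change is stated below.

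In the uterus, E2 changed the receptors in opposite directions. Erbb2, Erbb3 and Erbb4 rose and Egfr fell, so all 4 receptor genes passed the test. Of 5 ligands, Hbegf and Btc rose and the others did not pass. In total 5 of 9 members rose and 1 fell, where 26.7% of all genes passed (12.4% higher and 14.3% lower). Without both oil replicate 3 arrays 2694 of all genes were higher and 2898 lower, against 2478 and 2854 with all arrays. At an unadjusted p under 0.05 there were 7 members (36.1% of all genes), and for 7 the E2 and oil arrays did not overlap (40.5% of all genes). The median log2 fold change was 0.57 over the 9 members, against -0.000697 over all genes.

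Erbb3 intensity was 359.8, 343 and 431 in E2 uterus, against 167, 152 and 179 in oil uterus. Every E2 array lay above every oil array. The log2 fold change was 1.18 (SE 0.09, adjusted p = 3.97e-06, limma, n = 3 arrays per group), a ratio of 2.27. Erbb4, which binds neuregulins and some EGF family ligands, had 79.1, 85.6 and 111 in E2 uterus and 38.0, 34.8 and 40.0 in oil uterus. The groups did not overlap here either, and E2 uterus replicate 3 was the highest array. Its log2 fold change was 1.28 (SE 0.12, adjusted p = 1.56e-05), a ratio of 2.42. Erbb2, the partner receptor, had 302, 283 and 329 in E2 uterus and 189, 161 and 201 in oil uterus. Again the arrays were separate, and the log2 fold change was 0.73 (SE 0.09, adjusted p = 0.000119), a ratio of 1.66. A further probe set listed under both Erbb2 and Sympk was left out.

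Egfr, the receptor shared by the ligands measured, moved the other way. Its intensity was 475, 502 and 573 in E2 uterus, against 808, 843 and 809 in oil uterus. All E2 arrays lay below all oil arrays. The log2 fold change was -0.67 (SE 0.08, adjusted p = 9.13e-05), which left 0.628 of the oil level. Without both oil replicate 3 arrays the 4 receptors kept these calls, with log2 fold changes of -0.68 for Egfr, 0.80 for Erbb2, 1.24 for Erbb3 and 1.32 for Erbb4.

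**Figure D1:**
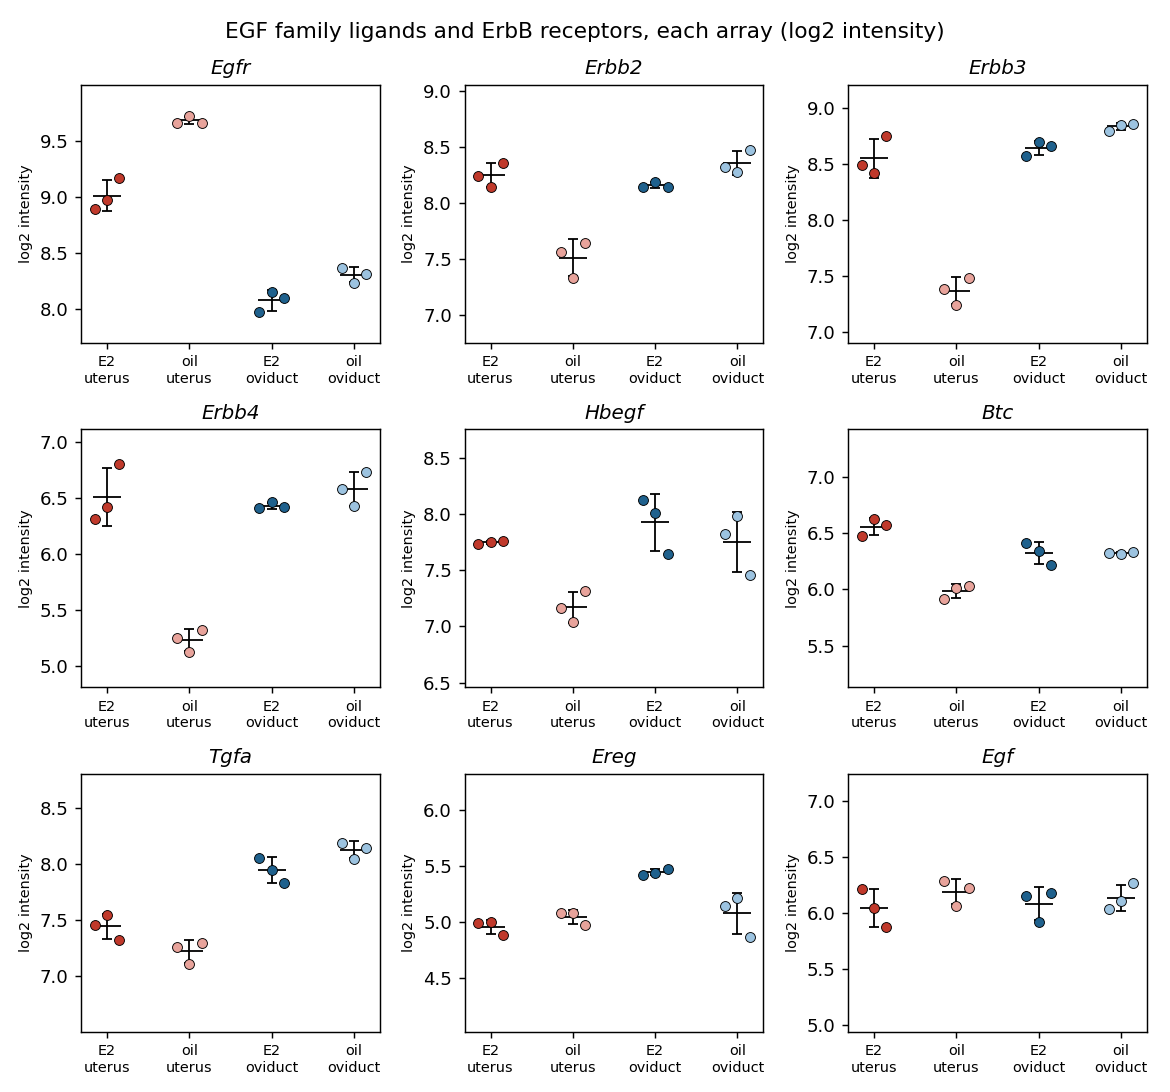
Log2 intensity of the 9 measured genes (vertical axes, each spanning the same number of log2 units) on every array of E2 uterus, oil uterus, E2 oviduct and oil oviduct (horizontal axis), with points for arrays and a bar for the mean with its SD (n = 3). Erbb2, Erbb3 and Erbb4 in oil uterus lie below the other 3 groups, and Egfr in oil uterus lies above them, at 9.68 against 9.01 in E2 uterus.

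Promoter sequence was available for 7 of the 10 genes of the list in the RefSeq-derived table of build GRCm38.p6. The 250 bases upstream of the gene start are shown for Egfr, Erbb2 and Btc, since Egfr and Erbb2 lie on the same chromosome and changed in opposite directions and Btc is the ligand whose rise had the smallest standard error. Capitals mark the estrogen response element half-site GGTCA or its reverse complement TGACC. These letters stand in 35.2% of all 32851 promoter windows of this length.
Egfr (chr11:16751953-16752202, plus strand): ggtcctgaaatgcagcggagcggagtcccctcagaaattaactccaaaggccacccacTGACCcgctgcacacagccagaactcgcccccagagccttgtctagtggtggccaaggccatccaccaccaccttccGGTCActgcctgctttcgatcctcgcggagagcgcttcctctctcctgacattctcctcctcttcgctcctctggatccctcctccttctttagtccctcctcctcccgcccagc
Erbb2 (chr11:98412234-98412483, plus strand): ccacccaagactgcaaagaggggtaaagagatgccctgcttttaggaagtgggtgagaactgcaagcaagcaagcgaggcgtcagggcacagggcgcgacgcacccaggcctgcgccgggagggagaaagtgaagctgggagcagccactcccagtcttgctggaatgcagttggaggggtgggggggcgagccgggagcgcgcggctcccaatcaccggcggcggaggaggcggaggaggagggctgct
Btc (chr5:91402995-91403244, minus strand): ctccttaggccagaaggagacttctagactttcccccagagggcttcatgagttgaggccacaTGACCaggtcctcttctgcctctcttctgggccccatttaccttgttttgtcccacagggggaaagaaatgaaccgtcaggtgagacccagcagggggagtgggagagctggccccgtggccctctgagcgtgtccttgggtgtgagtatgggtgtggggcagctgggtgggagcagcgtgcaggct

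Half-sites were found 2 times in the Egfr window, 1 time in that of Btc and 0 times in that of Erbb2. The full palindrome, GGTCA and TGACC with 3 bases between them, present in 0.0639% of windows, was in 0 of the 3, as was the AP-1 site TGANTCA (6.75% of windows, searched as read since it is its own reverse complement). The GC box GGGCGG or CCGCCC, in 32.7% of windows, occurred 1 time in the Egfr window, 9 bases before the gene start. A match in letters does not show binding, and the windows cover only the sequence next to the start.

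Among the ligands, Hbegf, an early epithelial signal at the site of the attaching blastocyst, had intensities of 213, 215 and 218 in E2 uterus and 144, 131 and 159 in oil uterus. The E2 arrays lay close together and above all oil arrays. Its log2 fold change was 0.58 (SE 0.14, adjusted p = 0.0107), a ratio of 1.49. Betacellulin (Btc), which binds EGFR and ERBB4, had 89.0, 98.7 and 95.6 in E2 uterus and 60.5, 64.5 and 65.5 in oil uterus. These groups were also separate, and the log2 fold change was 0.57 (SE 0.07, adjusted p = 0.000104), likewise a ratio of 1.49. Without both oil replicate 3 arrays the values were 0.65 for Hbegf and 0.60 for Btc, and both calls held.

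Transforming growth factor alpha (Tgfa) had 176, 187 and 159.6 in E2 uterus and 153, 138 and 157 in oil uterus. The E2 arrays were all higher, by a small margin, and the log2 fold change of 0.22 (SE 0.09) had an adjusted p of 0.0803, with a 95% interval from 0.03 to 0.41. Without E2 uterus replicate 3, the lowest of the E2 arrays, it passed at 0.28 (adjusted p = 0.0452). Egf had 74.5, 65.9 and 58.8 in E2 uterus and 78.1, 66.9 and 74.8 in oil uterus, and the arrays overlapped (log2 fold change -0.15, 95% interval -0.38 to 0.09). Epiregulin (Ereg) had 31.8, 32.0 and 29.6 in E2 uterus and 34.0, 33.8 and 31.5 in oil uterus, again with overlap (-0.09, 95% interval -0.28 to 0.10).

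Ereg and Btc are neighbours on chromosome 5, in the order Epgn, Ereg, Areg, Btc in GRCm38.p6. Of the 3 genes of this row that were measured, Btc alone passed the test in uterus, while Epgn, which encodes epigen, was at 0.15 (SE 0.08, adjusted p = 0.219). Differences between these neighbours were not tested.

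Signal level limits some of these values. Y-linked genes, which female tissue lacks, reached a log2 intensity of at most 7.50 (Sry), and at most 4.40 without Sry. Group means below 7.50 were found for Ereg, Btc, Egf and Erbb4 in all 4 groups, for Tgfa in both uterine groups, and for Hbegf (7.17) and Erbb3 (7.37) in oil uterus. Of the 5 Y-linked genes measured, 1 (Kdm5d) passed the test as lower in E2 uterus. Without both oil replicate 3 arrays it was at -0.32 (adjusted p = 0.00787, limma). Kdm5d lay at 3.84 to 4.40 on the uterine arrays, lower than any member mean. The background of each member's own probe set was not measured. Both the size and the call of a fold change are uncertain where a mean lies near background. Egfr and Erbb2 lay above 7.50 in every group, Erbb2 at 7.51 in oil uterus.

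In the oviduct, 0 of the 9 members passed limma's test, where 0.291% of all genes did, and 2 had an unadjusted p under 0.05 (10.5% of all genes). Those were Ereg and Egfr. With array weights in limma, 1 member (Ereg) passed. Without both oil replicate 3 arrays no member passed, while 49 of all genes were higher and 72 lower, against 32 and 26 with all arrays. Ereg intensity was 42.9, 43.3 and 44.5 in E2 oviduct, against 35.4, 37.3 and 29.3 in oil oviduct. The groups did not overlap, and oil replicate 3 was the lowest array. The log2 fold change was 0.37 (SE 0.09, adjusted p = 0.14), and 0.26 (adjusted p = 0.141) without both oil replicate 3 arrays. Corpus luteum markers were high on that oil oviduct array, and their part in the Ereg value was not tested.

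Egfr had 251, 284 and 274 in E2 oviduct and 329, 301 and 317 in oil oviduct. The arrays did not overlap, but the log2 fold change of -0.23 (SE 0.08) had an adjusted p of 0.333. Erbb2 had 283, 292 and 283 in E2 oviduct and 319, 311 and 356 in oil oviduct (-0.20, 95% interval -0.40 to 0.00151). Erbb3 had 381, 415 and 406 in E2 oviduct and 446, 462 and 465 in oil oviduct (-0.19, 95% interval -0.39 to 0.00777). Erbb2 and Erbb3 were thus lower on every E2 oviduct array than on any oil oviduct array, the opposite side to the uterus, without passing the test. Arrays of E2 and oil oviduct did not overlap for 4 members in all (Ereg, Egfr, Erbb2 and Erbb3), where 17.4% of all genes showed this. Erbb4 had 85.0, 88.1 and 85.5 in E2 oviduct and 95.8, 86.1 and 106 in oil oviduct, with overlap (-0.15, 95% interval -0.41 to 0.11).

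The ligands Hbegf, Btc, Tgfa and Egf overlapped between E2 and oil oviduct. Hbegf had 279.5, 258 and 200.2 in E2 oviduct and 226, 253 and 176 in oil oviduct, with the replicate 3 array lowest in each group. Its log2 fold change was 0.17, and 0.0248 without both oil replicate 3 arrays. Btc had 85.2, 81.2 and 74.3 in E2 oviduct and 80.0, 79.7 and 80.9 in oil oviduct, a log2 fold change of -0.00187 (95% interval -0.15 to 0.15). Tgfa was at -0.18 (95% interval -0.37 to 0.00758) and Egf at -0.05 (95% interval -0.29 to 0.18).

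**Figure D2:**
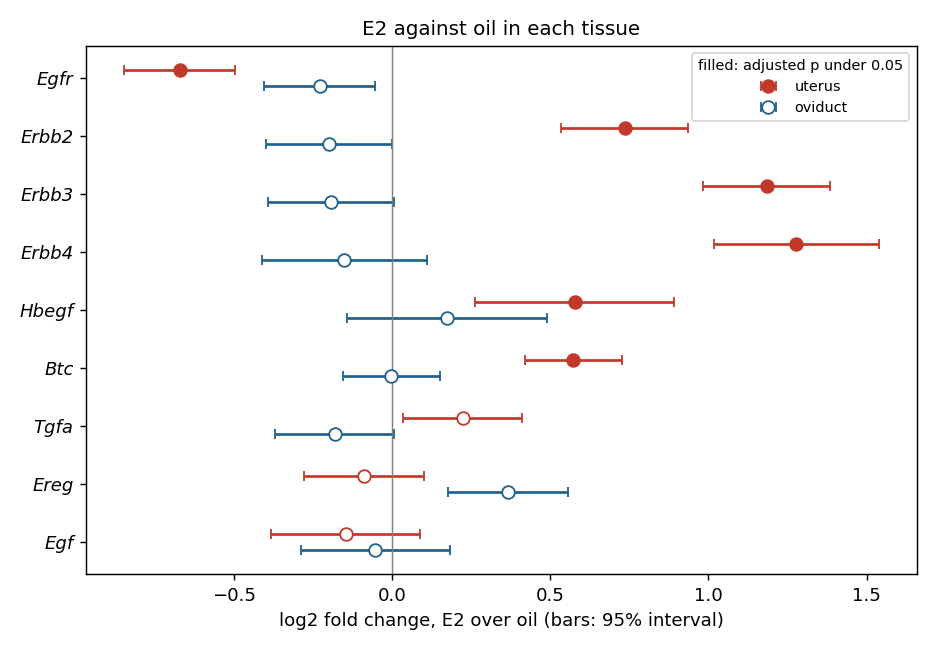
Log2 fold change of E2 over oil (horizontal axis) for the 9 genes (rows) in uterus and oviduct, as points with 95% intervals from the limma fit, filled where the adjusted p was under 0.05. All 6 filled points are uterine, with Erbb4 highest at 1.28 and Egfr lowest at -0.67.

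The E2 effects in the 2 tissues were set against each other by the interaction contrast, the E2 effect in uterus minus that in oviduct. Of 9 members, 4 were higher and 2 lower in this contrast, where 11.5% of all genes passed (5.71% higher and 5.77% lower). An unadjusted p under 0.05 was found for 7 members (23.7% of all genes). Erbb4 differed by 1.43 (SE 0.17, adjusted p = 0.000267), Erbb3 by 1.38 (SE 0.13, adjusted p = 5.77e-05) and Erbb2 by 0.93 (SE 0.13, adjusted p = 0.000795). For Btc the difference was 0.57 (SE 0.10, adjusted p = 0.00311). These 4 kept their calls in every alternative that tested them.

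Egfr differed by -0.44 (SE 0.11, adjusted p = 0.0267), a larger fall in uterus. That call ended without oil uterus replicate 1 (-0.45) or 2 (-0.42), E2 uterus replicate 1 (-0.38) or 2 (-0.42), E2 oviduct replicate 2 (-0.40) or 3 (-0.43), or the second oil oviduct array (-0.41). Ereg differed by -0.45 (SE 0.12, adjusted p = 0.0339). Its call ended without oil uterus replicate 1 (-0.43) or 2 (-0.44), or without E2 uterus replicate 1 (-0.47), 2 (-0.47) or 3 (-0.42). It also ended without E2 oviduct replicate 1 (-0.47), 2 (-0.46) or 3 (-0.44). The Ereg difference shrank most, to -0.35, without oil oviduct replicate 3, the array with the lowest Ereg of its group, and there it kept the call. For Tgfa the contrast was 0.40 (SE 0.12, adjusted p = 0.0543), and it passed without E2 uterus replicate 3 (0.47) or E2 oviduct replicate 1 (0.46) and, as 0.40, with treatment and replicate number as a block (adjusted p = 0.0364). For Hbegf it was 0.40 (SE 0.20, adjusted p = 0.266), and it passed at 0.62 (adjusted p = 0.043) without both oil replicate 3 arrays and at 0.56 (adjusted p = 0.0279) with array weights.

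Set against the oviduct, uterine Erbb2, Erbb3 and Erbb4 differed in oil mice and did not pass the test in E2 mice, while Egfr was higher in uterus in both. In oil mice, 1 member was higher and 6 were lower in uterus, where 38.7% of all genes passed (21.5% higher and 17.3% lower). The same 7 had an unadjusted p under 0.05 (45.6% of all genes), and for 7 members the tissues' arrays did not overlap (46.6% of all genes). Erbb3 was lower in oil uterus than in oil oviduct by a log2 difference of -1.47 (SE 0.09, adjusted p = 2.43e-07), Erbb4 by -1.35 (SE 0.12) and Erbb2 by -0.84 (SE 0.09). Egfr was higher in uterus by 1.38 (SE 0.08, adjusted p = 1.44e-07), a ratio of 2.60. Among ligands, uterine Tgfa differed by -0.91 (SE 0.09), Hbegf by -0.58 (SE 0.14) and Btc by -0.34 (SE 0.07), while Egf (0.05) and Ereg (-0.03) did not pass.

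In E2 mice, 2 members were higher and 2 were lower in uterus, where 34.1% of all genes passed (18.9% higher and 15.2% lower). An unadjusted p under 0.05 was found for 4 members (42.1% of all genes), and arrays without overlap for 4 (49.8% of all genes). The differences of Erbb2 (0.09, 95% interval -0.11 to 0.29), Erbb3 (-0.09, 95% interval -0.29 to 0.11) and Erbb4 (0.08, 95% interval -0.18 to 0.34) did not pass, and their uterine and oviductal arrays overlapped. Erbb3 passed with array weights, at -0.20 (adjusted p = 0.0158). Egfr was still higher in uterus, by 0.93 (SE 0.08, adjusted p = 4.34e-06), a ratio of 1.91. Tgfa stayed lower in uterus at -0.50 (SE 0.09, adjusted p = 0.000798) and Ereg was lower at -0.49 (SE 0.09, adjusted p = 0.001). Btc was higher at 0.24 (SE 0.07, adjusted p = 0.0206), and this call ended without E2 uterus replicate 2 (0.20) or 3 (0.23) or E2 oviduct replicate 3 (0.18). Both tissue comparisons share their arrays with the E2 comparisons above, so they describe the same values from another side.

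The order of group means followed from these levels. For Egfr the order was oil uterus, E2 uterus, oil oviduct, E2 oviduct, and no neighbours in that order overlapped. For Erbb2 and Erbb4, oil oviduct, E2 uterus and E2 oviduct followed each other with overlapping arrays, and oil uterus lay below them with no overlap. For Erbb3 the order was oil oviduct, E2 oviduct, E2 uterus, oil uterus, and the overlap was between E2 oviduct and E2 uterus. All neighbours of Egf overlapped.

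**Figure D3:**
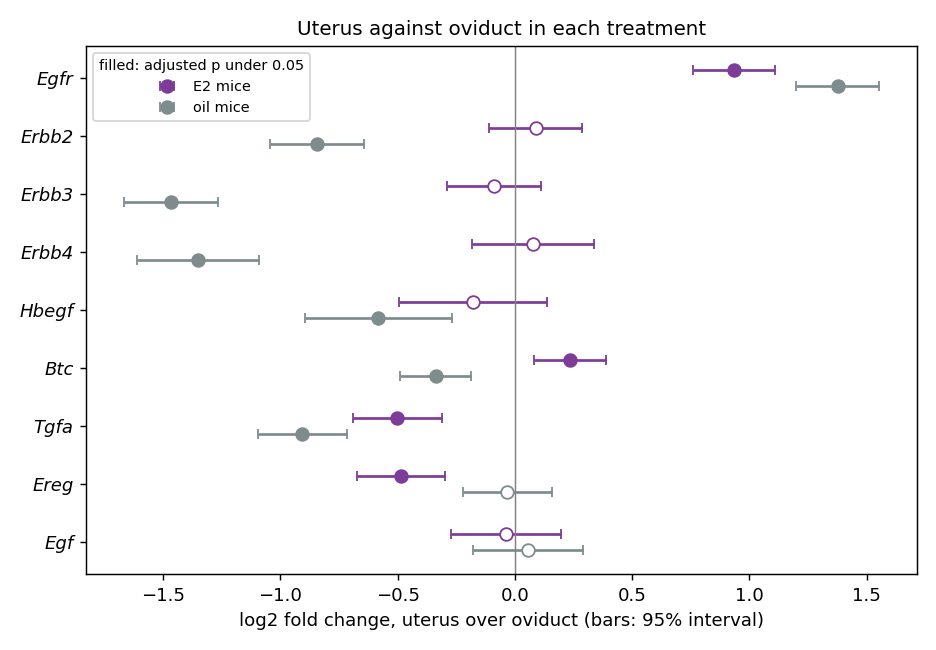
Log2 fold change of uterus over oviduct (horizontal axis) for the 9 genes (rows) in E2 mice and in oil mice, as points with 95% intervals from the limma fit, filled where the adjusted p was under 0.05. The Erbb2, Erbb3 and Erbb4 points of oil mice lie between -1.47 and -0.84, and those of E2 mice between -0.09 and 0.09.

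Markers of cell types moved in the same samples, and their uterine counts stand beside the 12.4% of all genes that rose and 14.3% that fell. Of 12 epithelial markers, 11 rose in E2 uterus and 0 fell by limma (median log2 fold change 0.90), and Cldn3 (-0.26) did not pass. Their summed intensity was 9860 to 11162 in E2 uterus, against 4618 to 5384 in oil uterus, and 10076 to 10795 in E2 oviduct, against 10610 to 11826 in oil oviduct. Cdh1, the epithelial cadherin, rose by 0.78 (SE 0.08), and the keratin Krt19 by 1.93 (SE 0.12). In bulk tissue, more cells of a type and more RNA per cell cannot be told apart. Stromal markers fell in 3 of 8 genes and rose in 0 by limma (median -0.18), summing to 18597 to 19039 in E2 uterus and 19889 to 20428 in oil uterus. The stromal transcription factor gene Hand2 fell by 0.66 on the log2 scale (SE 0.08). Endothelial markers fell in 5 of 6 genes and rose in 1 (median -0.53), and summed to 2816 to 3106 in E2 uterus against 4118 to 4741 in oil uterus. Macrophage markers rose in 5 of 6 genes (median 0.87) and smooth muscle markers in 2 of 8 (median 0.38). Without both oil replicate 3 arrays these counts were 10 of 12 higher for epithelium (Esrp1 no longer passed, at 0.30), 4 of 8 lower for stroma (Pdgfra added), and 4 of 6 lower for endothelium (Pecam1 lost). They were then 6 of 6 higher for macrophages (C1qb added) and 7 of 8 higher for smooth muscle, whose 8 markers were all high on the uterine array of oil replicate 3 (median displacement 0.52). The part of these cell types in the receptor values was not tested.

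The receptors were also placed on a scale relative to the mean log2 intensity of the 12 epithelial markers on the same array. This scale was added after the values were seen. On it the E2 and oil uterus arrays of Erbb3 and Erbb4 overlapped. Erbb3 lay at -0.95 to -0.82 in E2 uterus and -1.13 to -0.91 in oil uterus (difference 0.12, exact permutation p = 0.3, two-sided). Erbb4 differed by 0.22 (exact permutation p = 0.2), also with overlap. Erbb2 lay at -1.23 to -1.17 in E2 uterus and -0.96 to -0.74 in oil uterus, and Egfr at -0.52 to -0.40 in E2 uterus and 1.14 to 1.44 in oil uterus. These 2 did not overlap, with differences of -0.32 and -1.73 and the smallest p that 3 against 3 arrays allow, 0.1. The marker mean itself was higher by 1.06 in E2 uterus, so this scale lowers every gene by that amount and a gene that rose by less comes out lower. Erbb2 rose by less (0.73), so its lower value follows from the scale, and the fall of Egfr (-0.67) is enlarged by it. Erbb3 (1.18) and Erbb4 (1.28) rose by about as much as the marker mean. A p-value from 3 against 3 arrays cannot show that a difference is absent. No member, ligand or receptor, is therefore read on this scale as a result.

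The genes whose log2 values tracked each member most closely were ranked by Pearson r over the 12 arrays. These arrays form 4 groups, so such an r mostly reflects group means and is given as a description. Cdh1 ranked first for Erbb3 (r = 0.991) and for Erbb2 (r = 0.986). Erbb2 was next closest to Erbb4 (0.978) and to the desmosomal cadherin gene Dsg2 (0.975), and Erbb3 to Kctd1 (0.99) and Tprn (0.985). Closest to Erbb4 were Rab11fip1 (0.984), the tight junction gene Cxadr (0.983) and Eps8l2 (0.982). Closest to Egfr were Ece2 (0.994), Gm10033 (0.99) and Arl15 (0.99). For ligands the first-ranked genes were Mylip for Btc (0.968), Gpr182 for Hbegf (0.952), Tmem51os1 for Tgfa (0.983) and Syt11 for Ereg (0.949).

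Neuregulins, which bind ERBB4 and only in part ERBB3, and epigen (Epgn) were measured beside the members. Nrg1 rose in E2 uterus, with log2 intensities of 6.13, 6.37 and 6.09, against 5.58, 5.54 and 5.96 in oil uterus (0.50, SE 0.12, adjusted p = 0.00948). Nrg2 rose by 0.33 (SE 0.10, adjusted p = 0.0225). So 2 of 5 other family ligands rose and 0 fell by limma in uterus, where 12.4% of all genes rose and 14.3% fell. In oviduct 0 passed, where 0.291% of all genes did. Without both oil replicate 3 arrays 1 rose and 1 fell in uterus: Nrg2 no longer passed (0.28, adjusted p = 0.0748), and Nrg4 was lower (-0.45, adjusted p = 0.00895, against -0.29 and 0.133 with all arrays).

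Of all 76 measured genes of the pathway lists, 24 passed the test in uterus with all arrays, to be read against the 26.7% of all genes that did. Proteases and rhomboid proteins that release the ligands passed the uterine test in 3 of 10 genes. Rhbdf2, which helps the sheddase ADAM17 to the cell surface, rose by 0.33 (SE 0.08). Adam15 fell by 0.27 on the log2 scale (SE 0.06) and Adam12, a protease known to cleave HB-EGF, by 1.64 (SE 0.11, adjusted p = 1.42e-06). Membrane partners passed in 5 of 8 genes. Muc4, a mucin that binds ERBB2, rose by 3.99 (SE 0.22), to a mean log2 intensity of 9.98 in E2 uterus, against 5.99 in oil uterus. Muc1 rose by 2.55 (SE 0.12) and Cd9, a tetraspanin that associates with membrane HB-EGF, by 0.43 (SE 0.09). The hyaluronan receptor Cd44 fell by 1.07 on the log2 scale (SE 0.16) and Gpc1 by 0.37 (SE 0.10). Sdc4 also passed as higher without both oil replicate 3 arrays.

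Downstream of the receptors, 4 of 15 measured adaptor and Ras-MAPK genes rose and 1 fell in uterus (median 0.09). The docking protein gene Gab2 rose by 0.54 (SE 0.09), Plcg2 by 0.42 (SE 0.09), Pik3ca by 0.23 (SE 0.06) and Shc1 by 0.21 (SE 0.07), while Akt1 fell by 0.21 on the log2 scale (SE 0.06). Without both oil replicate 3 arrays Akt1 did not pass (-0.17, adjusted p = 0.0612), and Map2k1 (0.26) and Pik3r1 (0.21) were higher. Of 18 feedback and turnover genes, 3 rose and 2 fell (median 0.00294), again against 26.7% of all genes. Lrig1, which promotes degradation of ErbB receptors, rose by 1.49 (SE 0.10, adjusted p = 1.28e-06). Its log2 intensities were 8.88, 8.79 and 9.08 in E2 uterus and 7.50, 7.56 and 7.22 in oil uterus. The receptor phosphatase gene Ptprj rose by 0.94 (SE 0.08) and the MAPK phosphatase gene Dusp4 by 0.33 (SE 0.07). The Ras pathway inhibitors Spry4 and Spred1 fell by 0.67 (SE 0.11) and 0.21 (SE 0.07) on the log2 scale. Without both oil replicate 3 arrays Spred1 did not pass (-0.20, adjusted p = 0.0914), and Errfi1, a direct inhibitor of ErbB kinases, was higher (0.43, adjusted p = 0.00142, against 0.19 and 0.434 with all arrays). Of 20 immediate early and MAPK-induced genes 1 rose and 3 fell (median -0.09). Myc fell by 1.55 on the log2 scale (SE 0.08, adjusted p = 2.2e-07) and Etv5, a transcription factor gene induced through MAPK, by 0.89 (SE 0.08), while Ier3 rose by 0.75 (SE 0.19). Ccnd1, the cyclin D1 gene, fell by 0.35 on the log2 scale (SE 0.12), but was at -0.21 (adjusted p = 0.125) without both oil replicate 3 arrays, where Fosl2 passed as higher (0.49). In the oviduct 0 of these 76 measured genes passed limma's test, where 0.291% of all genes did, and 5 had an unadjusted p under 0.05, where 10.5% of all genes did. Of the marker lists Cldn4 alone passed, at -0.46 (SE 0.08, adjusted p = 0.0466), and its adjusted p was 0.0583 without both oil replicate 3 arrays.

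**Figure D4:**
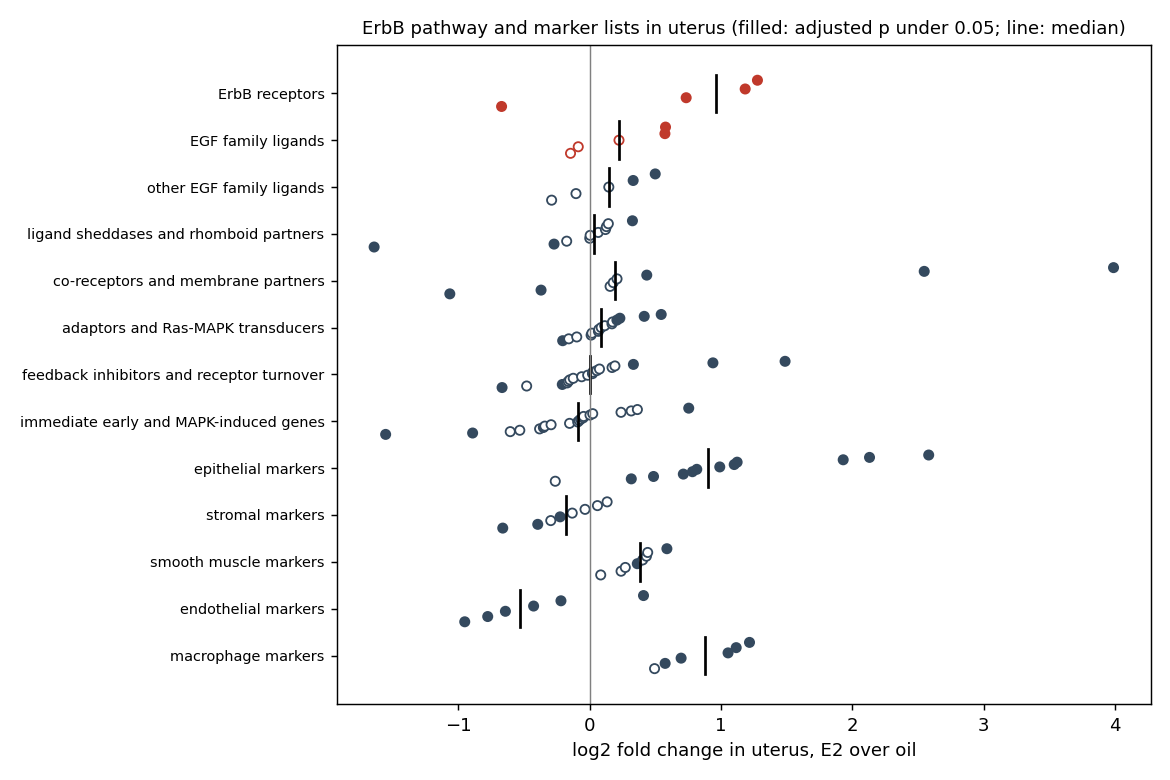
Log2 fold change of E2 over oil in uterus (horizontal axis) for each gene of the ErbB receptors, EGF family ligands, pathway lists and cell type marker lists (rows), filled where the adjusted p was under 0.05, with a line at each list's median. Medians were 0.96 for the receptors and 0.90 for the epithelial markers, while Egfr and the stromal and endothelial medians lie below 0.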

How the data were processed

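RNA of flushed mouse oviduct and uterus was hybridised to 12 Affymetrix mouse gene arrays, 1 biotin-labelled sample each, per the labels. The deposited values are probe set intensities that the authors made with RMA per the submitters' processing notes. The RMA version is not stated in those notes. The values were linear, so log2 was taken from the deposited intensity here. Of 35556 probe sets, 23410 were listed in the platform annotation, 21789 with 1 symbol, 1621 with several and 12146 unlisted. Through gene identifiers 21698 matched GRCm38.p6. The probe set with the highest mean represented each of 19938 genes. No intensity filter was applied.

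One model with a mean for each of the 4 groups was fitted to all arrays (limma 3.58.1, lmFit and eBayes, R 4.3.3, two-sided). The code of the fit was checked on simulated arrays with independent noise and known changes. Those held no outlying array and no shared mice, so the check cannot show how well the model suits these data. Alternatives were each tissue fitted alone, replicate blocks, an intensity filter, mean probe sets, other scalings, an intensity trend, array weights and leaving out each array. Leaving out both oil replicate 3 arrays and the scale relative to epithelial markers were added after seeing the data. The members and lists were chosen with earlier results of these data known. Besides the members, up to 4 genes of each pathway list past the uterine test were named by size, with the genes most alike in pattern, Ltf and Lcn2, and markers past the test. Hoxa11, Foxj1, Akr1c18, Epgn, Cldn3, Kdm5d, genes whose call changed without oil replicate 3 and, where 5 of a list passed, the fifth gene were named after their values were seen.

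Replicate numbers are shared between groups. Deviations from group means correlated between -0.2 and 0.188 for E2 and oil arrays of 1 number. For uterus and oviduct arrays of 1 number the correlations were all positive, between 0.005 and 0.263. They cannot show whether both tissues of 1 number came from the same mouse, and 1 oil number stood apart in both tissues. The numbers were not taken as pairs in the model, which treats all arrays as independent. Any shared mice are therefore left out of its p-values for the tissue comparisons and the interaction contrast. The limma p-values set a group difference against the spread between arrays, pooled over the 4 groups and moderated across genes. The number of arrays limits their precision. Scanner files were not used here.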

Additional observations from a re-analysis of the deposited data

Results flagged for a closer look

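The E2 effect differed between uterus and oviduct, by the interaction contrast in limma, for 6 members. The differences (uterine minus oviductal log2 effect) were 1.43 for Erbb4, 1.38 for Erbb3, 0.93 for Erbb2, 0.57 for Btc, -0.44 for Egfr and -0.45 for Ereg. Those of Egfr and Ereg lost the call without several single arrays, as given with their values above. Epithelial markers differed in the same contrast in 10 of 12 genes (median 1.01), where 11.5% of all genes passed, and their part in these differences was not tested. Groups of 3 arrays are too small for a test of single outlying arrays.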

How the results depend on the processing

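Of 45 results for a single member in 1 comparison, 32 kept direction and call in every alternative run. Over 925 alternative values, 879 kept both, 18 lost a call, 13 gained 1 and 15 changed sign. All 15 belong to differences that did not pass the test. Leaving out single arrays, these ranged from -0.0468 to 0.0525 for Btc and from -0.10 to 0.0307 for Egf in oviduct, from -0.13 to 0.0451 for Egf and from -0.0666 to 0.18 for Erbb4 between tissues in E2 mice, and from -0.14 to 0.0387 for Ereg between tissues in oil mice. The changed signs for Btc in oviduct were 0.0202 (quantile normalization), 0.0164 (median centring), 0.00459 (without oil oviduct replicate 3, and without both oil replicate 3 arrays) and 0.0525 (without E2 oviduct replicate 3). In oviduct Egf had 0.0276 (array weights), 0.0119 (without oil oviduct replicate 3, and without both oil replicate 3 arrays) and 0.0307 (without E2 oviduct replicate 2). Between tissues in E2 mice, Egf was at 0.0451 and 0.00823 without E2 uterus or E2 oviduct replicate 3, and Erbb4 at -0.0666 without E2 uterus replicate 3. Between tissues in oil mice, Ereg was at 0.0045, 0.00192 and 0.0387 without oil uterus replicate 3 or oil oviduct replicate 1 or 2. Leaving out single arrays gave 5 to 6 members higher and 1 lower in E2 uterus, 0 either way in oviduct, 4 to 5 higher and 0 to 2 lower in the interaction, 1 to 2 higher and 2 lower between tissues in E2 mice, and 1 higher and 6 lower in oil mice. With array weights 1 member rose in oviduct. Keeping only genes at or above the median level leaves out the dim members, and gave 1 member lower in the interaction and 1 higher and 1 lower between tissues in E2 mice. The replicate block, which was no established pairing, kept Erbb3 at 1.18 in uterus with 5 members higher and 1 lower. Where a cause is not named, the cause was not tested. Dim signal limits Ereg, Btc, Egf and Erbb4, whose means lay below the highest Y-linked level (7.50, Sry) in all 4 groups. Their means lay above 4.40, the highest level of the Y-linked genes without Sry.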
